A study of Mus musculus with 8 samples.

Results

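The genes described here carry the signal of cytokine and hormone receptors that use Janus kinases (JAKs) and STAT transcription factors. A list of 39 genes was chosen by symbol: 16 receptor chains, 1 ligand, 4 kinases, 5 STATs and 13 inhibitors of the pathway. Of these, 36 had a probe set under their symbol, out of 19505 genes with a symbol on the array, each with 1 probe set. Jak3, the kinase of the common gamma chain, Il2rg, that chain itself, and Prlr, the prolactin receptor, were not analysed here.

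Uterine RNA came from 8 wild-type mice of the inbred strain C57BL/6J, collected on day 4.5 of pseudopregnancy, the state induced by mating with a vasectomised male, in which no embryo is present. The 4 exposed mice inhaled electronic cigarette aerosol for 3 hours a day, made from propylene glycol and vegetable glycerin at 55:45 with 24 mg/mL nicotine and no flavouring. They were primed for 4 weeks, 5 days a week, before mating and then exposed daily, and the 4 sham mice breathed room air. Both groups were mated to such males, and without an embryo the model covers the maternal side alone. The comparison asks whether the aerosol alters uterine transcripts around the time of receptivity. Each mouse gave 1 array, values are log2 expression, and a pair written with ± is a group mean with its SD (n = 4) unless marked SE. The quartiles of every array were 5.47, 7.08 and 8.35, which serve as a scale. Because probes differ in brightness, no gene's level is set against another's.

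In this pathway, a ligand brings receptor chains together, the JAKs bound to them are activated, and STAT proteins are phosphorylated, pair and enter the nucleus. Among the genes they switch on are those of the SOCS family and Cish, whose products shut the receptor off again. In the uterus the pathway serves leukaemia inhibitory factor, which acts through STAT3 at implantation, as well as interleukins, interferons, growth hormone and prolactin.

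Most STAT pairs bind the letters TTCNNNGAA, which read alike on both strands, and promoter sequences from RefSeq (build GRCm38.p6) were searched for them. The windows run from 250 bases before to 50 bases after the annotated gene start. Of the 36 measured genes, 25 had a window and 4 of these held the motif, which is 16.0%, against 9.55% of all 27025 genes in the table. The 4 were the feedback gene Cish, with 2 copies, and the receptor genes Il7r, Ifnar2 and Ifnar1, with 1 copy each. At least 2 copies in one window were found in 0.54% of genes. The Cish promoter is shown from 100 bases before to 30 bases after the gene start because it carries the paired motif, and the single sites are shown with 10 flanking bases. Capitals mark the motif.
Cish, chr9:107296559-107296688, + strand: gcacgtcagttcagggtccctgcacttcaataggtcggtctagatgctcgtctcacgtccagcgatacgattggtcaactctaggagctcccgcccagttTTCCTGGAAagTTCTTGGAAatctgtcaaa
Il7r, chr15:9530000-9530028, - strand: gttcaggagcTTCAGGGAAtaccaagatg
Ifnar2, chr16:91372559-91372587, + strand: tgccaaggccTTCCTGGAAgaagagagta
Ifnar1, chr16:91485200-91485228, + strand: ggcgggggcgTTCACGGAAggggcggggc
A match describes the letters and does not show binding. The central letters differ between the sites, CTG in Ifnar2 and in the first Cish site, TTG in the second Cish site, AGG in Il7r and ACG in Ifnar1.

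Across the 36 genes, differences between exposed and sham uteri were small. Ghr, the growth hormone receptor, was the member with the smallest p and had a higher mean after exposure, and no inhibitor, STAT or kinase reached an unadjusted p under 0.05. With limma and Benjamini-Hochberg adjustment over all 22206 probe sets, 0 members passed an adjusted p of 0.05, as did 0 probe sets (0.0%). At an unadjusted p under 0.05, 1 member was higher, 2.78% of 36, where 2.91% of all probe sets were higher, and 0 members were lower, where 2.5% of all probe sets were. In either direction 5.42% of probe sets reached that value. The share of members with low p-values was thus not above that of the array. By mean, 19 members were higher and 17 lower, with a median difference of 0.02 against 0.0014 over all probe sets. Differences of less than 0.25 were found for 30 of the 36 members (83.3%) and for 88.5% of all probe sets.

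**Figure D1:**
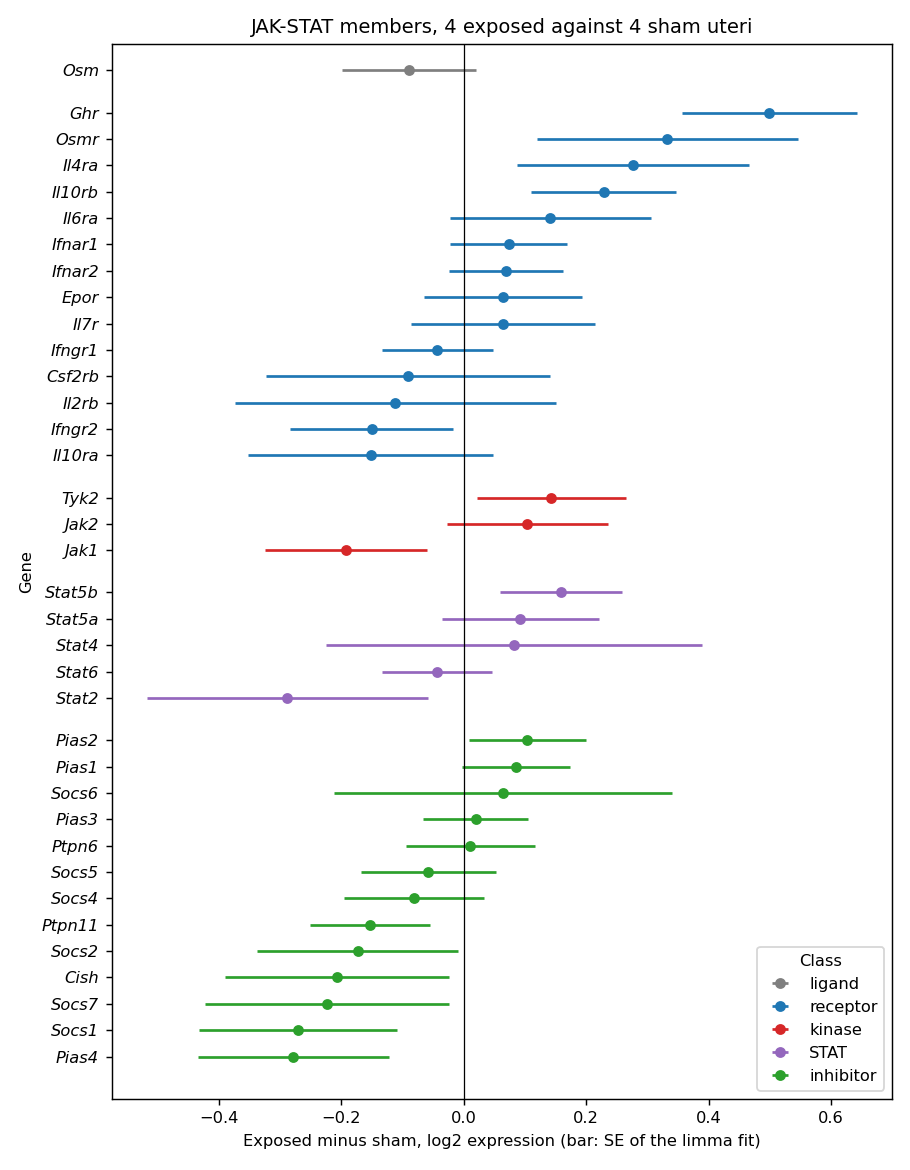
Exposed minus sham difference in log2 expression (horizontal axis) for each of the 36 measured genes, grouped and coloured by class, with bars for the SE of the limma fit and 4 mice per group. Ghr at 0.50 lies farthest from 0, and most other genes lie within 0.25 of it.

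**Figure D2:**
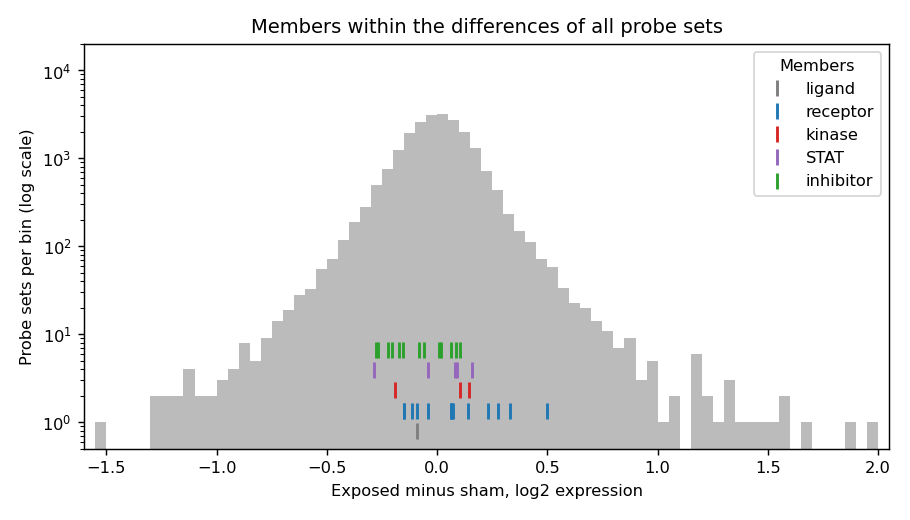
Number of probe sets (log scale) in bins of the exposed minus sham difference, with the members of each class marked as vertical ticks at the bottom. The members run from -0.29 to 0.50, inside the range of all 22206 probe sets, -1.51 to 2.00.

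The ligand on the list was Osm, oncostatin M, a cytokine of the interleukin 6 family. Its probe set was dim, below the lower quartile of the array in every mouse, at 4.04 ± 0.14 in sham and 3.95 ± 0.16 in exposed uteri.

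Of the 14 measured receptor chains, 9 had higher and 5 lower means after exposure, with a median difference of 0.07. Ghr, whose product signals through JAK2 and STAT5, was 8.48, 8.23, 8.31 and 8.55 in sham mice 1 to 4 and 8.58, 9.25, 8.79 and 8.93 in exposed mice 1 to 4. Every exposed value lay above every sham value, though exposed mouse 1 exceeded sham mouse 4 by little. Ghr was the 1 member whose groups did not overlap in the higher direction, which 1.38% of all probe sets showed. In the lower direction 0 members had separate groups, against 1.35% of probe sets, and in either direction it was 2.73%. The difference was 0.50 ± 0.14 (SE), or 1.41-fold, with an unadjusted p of 0.00577 and an adjusted p of 0.838 in limma. That p ranked 87 among all probe sets, so 0.387% of them had a smaller one. The difference was 0.29 without exposed mice 2 and 4, whose arrays correlated least with the rest (unadjusted p = 0.0447 in limma, a setting chosen after seeing the data). In that setting 3.98% of all probe sets reached an unadjusted p under 0.05.

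Ghr is also expressed by fat cells, whose markers are given beside it. The mean of the 9 measured markers, relative to the sham mean, was 0.71, 1.03, -0.12 and 0.13 in exposed mice 1 to 4 while sham mice ran from -0.12 to 0.20. Exposed mouse 2 was highest for both. Exposed mouse 1, second for the markers, had the lowest Ghr of the exposed mice. Adipoq, the adipocyte hormone adiponectin, ran from 4.55 to 5.26 in sham mice. It was 7.10 in exposed mouse 1, 6.67 in exposed mouse 2, 4.23 in exposed mouse 3 and 4.37 in exposed mouse 4. Of the 9 markers, 5 lay above every sham value in exposed mouse 1, 7 in exposed mouse 2, 0 in exposed mouse 3 and 3 in exposed mouse 4, where Cidec, Pck1 and Plin4 were the high ones. Below every sham value lay 2, 0, 1 and 2 of them in the same order. The part of fat cells in the Ghr values was not tested. In whole tissue, a change in the number of cells of a type and a change in RNA per cell cannot be told apart, here and for each gene that follows.

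Epor, the erythropoietin receptor, which like Ghr works as a pair of identical chains, was 6.62 ± 0.12 in sham and 6.68 ± 0.25 in exposed uteri, a difference of 0.06 ± 0.13 (SE). The contrast with Ghr was not tested.

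Among receptors that partner the shared chain gp130, Osmr, the oncostatin M receptor, was 7.39, 7.73, 6.85 and 7.27 in sham mice 1 to 4, and 7.26, 7.39, 7.95 and 7.97 in the exposed mice. Exposed mice 3 and 4 stood above all others, while exposed mice 1 and 2 lay inside the sham range, and the difference of 0.33 ± 0.21 (SE) did not pass (unadjusted p = 0.149 in limma). It ranged from 0.18 without sham mouse 3 to 0.47 without sham mouse 2. Il6ra, the interleukin 6 receptor, was 6.99 ± 0.19 in sham and 7.13 ± 0.33 in exposed uteri, with exposed mouse 4 highest at 7.61.

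Among receptors of interleukins, Il4ra, the chain that binds interleukin 4, was 8.64, 9.10, 8.72 and 8.54 in sham mice 1 to 4, and 8.48, 9.25, 9.31 and 9.06 in the exposed mice. Exposed mice 2 and 3 exceeded every sham mouse, and exposed mouse 1 lay below them all. The difference was 0.28 ± 0.19 (SE). Without exposed mouse 1 it was 0.46, at an unadjusted p of 0.0107 in limma. It was 0.18 without exposed mouse 3 and 0.20 without exposed mouse 2. Without exposed mouse 1, 11.5% of all probe sets reached an unadjusted p under 0.05. Il10rb, a chain shared by the receptors of interleukin 10 and the lambda interferons, had the second smallest p among the members. It was 8.32, 8.18, 8.46 and 8.59 in sham mice 1 to 4, and 8.46, 8.69, 8.50 and 8.82 in the exposed mice. All exposed mice lay above the sham mean, but exposed mice 1 and 3 overlapped the sham range, and the difference was 0.23 ± 0.12 (SE; unadjusted p = 0.0819 in limma). Without sham mouse 4 it was 0.295, at an unadjusted p of 0.0393 in limma. In that setting 5.38% of all probe sets reached an unadjusted p under 0.05. The difference was 0.16 without sham mouse 2.

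Il10ra, the chain that binds interleukin 10 itself, had the opposite sign to Il10rb, at 6.97 ± 0.40 in sham and 6.82 ± 0.27 in exposed uteri. Il7r, the interleukin 7 receptor of lymphocytes, was dim at 4.95 ± 0.26 and 5.01 ± 0.22, sham first. Csf2rb, the chain shared by the receptors of GM-CSF, interleukin 3 and interleukin 5, was 8.27 ± 0.40 and 8.18 ± 0.40. In the mouse Csf2rb has a close copy, Csf2rb2, so its probes may pick up both.

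Il2rb, the beta chain of the interleukin 2 and interleukin 15 receptors and a gene of natural killer cells, had the largest spread of the receptors. It was 8.18, 8.16, 7.82 and 7.93 in sham mice 1 to 4, and 7.73, 7.21, 7.98 and 8.72 in the exposed mice. Exposed mouse 4 held the highest and exposed mouse 2 the lowest of the 8 values, so that the exposed SD was 0.63 against 0.18 in sham while the means differed by -0.11 ± 0.26 (SE). The mean of 9 natural killer cell markers was ordered alike at these ends. It was 0.58 above the sham mean in exposed mouse 4 and at -0.50 relative to it in exposed mouse 2, where sham mice ran from -0.19 to 0.11. Not every marker followed the mean. In exposed mouse 4, 6 of the 9 lay above every sham value, and in exposed mouse 2, 8 lay below every sham value. Gzmb, at 6.78 in exposed mouse 4, lay inside the sham range of 6.19 to 7.16. Ncr1, a receptor that defines these cells, was 7.85 in exposed mouse 4 and 6.20 in exposed mouse 2, where the other 6 mice ranged from 6.28 to 6.86. The part of these cells in the Il2rb values was not tested.

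Of the 4 interferon receptor chains, 0 reached an unadjusted p under 0.05. Ifnar1 and Ifnar2, which together bind type I interferons, had differences of 0.07 ± 0.10 and 0.07 ± 0.09 (SE). Ifngr1, the ligand-binding chain for interferon gamma, was 8.91 ± 0.13 in sham and 8.87 ± 0.06 in exposed uteri. Ifngr2, its signalling partner, was 8.73, 8.59, 8.62 and 8.60 in sham mice 1 to 4, and 8.84, 8.25, 8.58 and 8.27 in the exposed mice. Exposed mice 2 and 4 lay below all others and exposed mouse 1 above them, and the difference of -0.15 ± 0.13 (SE) turned to 0.074 without exposed mice 2 and 4, a setting chosen after seeing the data. Without exposed mouse 1 it was -0.27, at an unadjusted p of 0.0326 in limma. In that setting 11.5% of all probe sets reached an unadjusted p under 0.05. The difference was -0.07 without exposed mouse 2.

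Of the 3 measured kinases, Jak2 and Tyk2 had higher and Jak1 a lower mean, with a median difference of 0.10 and no call. Jak1, used by most interleukin and all interferon receptors, was 8.98, 8.94, 8.88 and 8.59 in sham mice 1 to 4, and 8.75, 8.32, 8.78 and 8.76 in the exposed mice. All exposed mice lay below the sham mean, yet only exposed mouse 2 lay below every sham mouse, and the difference was -0.19 ± 0.13 (SE). Without exposed mouse 2 it was -0.08, and without sham mouse 4 it was -0.28. In exposed mouse 2 the mean of 9 smooth muscle markers was also the lowest, at -0.60 relative to the sham mean, and that of 10 macrophage and monocyte markers was -0.69. Their part in the Jak1 value was not tested.

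Tyk2, which serves type I interferon and interleukin 10 and 12 receptors, was 8.38, 8.20, 8.38 and 8.29 in sham mice 1 to 4, and 8.39, 8.46, 8.20 and 8.77 in the exposed mice. Exposed mouse 4 was highest, and exposed mouse 3 was lowest, just below sham mouse 2 (8.1992 against 8.2015). The difference between the groups was 0.14 ± 0.12 (SE). Without exposed mouse 4 the difference was 0.039, and without exposed mouse 3 it was 0.23. Jak2, the kinase of the growth hormone, prolactin and erythropoietin receptors, was 10.85, 10.80, 10.49 and 10.47 in sham mice 1 to 4, and 10.55, 10.80, 11.02 and 10.66 in the exposed mice. Its difference of 0.10 ± 0.13 (SE) was within the spread of either group, whereas its receptor Ghr had separate groups.

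The 5 STATs had differences from -0.29 to 0.16, with a median of 0.08 and none at an unadjusted p under 0.05. Stat2, which acts with IRF9 in the response to type I interferon, was 8.67, 9.04, 7.85 and 8.37 in sham mice 1 to 4, and 8.32, 7.87, 8.46 and 8.12 in the exposed mice. The exposed mice all lay inside the sham range and all below the sham mean, and the difference was -0.29 ± 0.23 (SE). Sham mouse 3 had the lowest value of all. Without it the difference was -0.50 at an unadjusted p of 0.0259 in limma. In that setting 4.07% of all probe sets reached an unadjusted p under 0.05. The difference was -0.10 without sham mouse 2, the highest, and -0.18 without exposed mouse 2. Irf9, the partner of STAT2, was 8.05 ± 0.20 in sham and 7.77 ± 0.36 in exposed uteri.

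Stat5b, the main STAT of growth hormone signalling, was 7.23, 7.22, 7.26 and 7.18 in sham mice 1 to 4, and 7.22, 7.25, 7.53 and 7.53 in the exposed mice. Sham mice and exposed mice 1 and 2 were close together, and exposed mice 3 and 4 stood above them, giving a difference of 0.16 ± 0.10 (SE; unadjusted p = 0.142 in limma). Stat5a, its close copy and the main STAT of prolactin signalling, was 7.61, 7.79, 7.86 and 7.71 in sham mice 1 to 4, and 7.66, 7.57, 8.05 and 8.05 in the exposed mice. The same 2 mice, exposed 3 and 4, were highest. As the genes are near copies, shared signal between their probes cannot be told apart from like levels.

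Osmr, Stat5a and Stat5b were thus each highest in exposed mice 3 and 4. The mean of the 8 gland markers was highest in these mice as well, 0.91 and 1.67 above the sham mean, against -0.29 to 0.25 in sham mice. The gland markers did not move as one. Prss28, an implantation serine protease, ran from 4.69 to 5.67 in sham mice and reached 6.80 in exposed mouse 3 and 12.6 in exposed mouse 4. Foxa2, a transcription factor that defines the glands, was 7.16 in exposed mouse 4, the lowest of the 8 mice. The part of the glands in the values of Osmr and both STAT5 genes was not tested.

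Stat4, the STAT of interleukin 12 signalling in natural killer and T cells, had the largest spread of the STATs. It was dim, at 4.18, 4.73, 3.40 and 4.00 in sham mice 1 to 4, and 3.81, 3.92, 3.93 and 4.97 in the exposed mice. Exposed mouse 4, also highest for Il2rb and the natural killer cell marker mean, held the highest value, and sham mouse 3 the lowest. The difference was 0.08 ± 0.31 (SE). Stat6, the STAT of interleukin 4 and interleukin 13, varied little, at 9.18 ± 0.12 in sham and 9.13 ± 0.06 in exposed uteri, while its receptor chain Il4ra had a mean difference of 0.28.

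**Figure D3:**
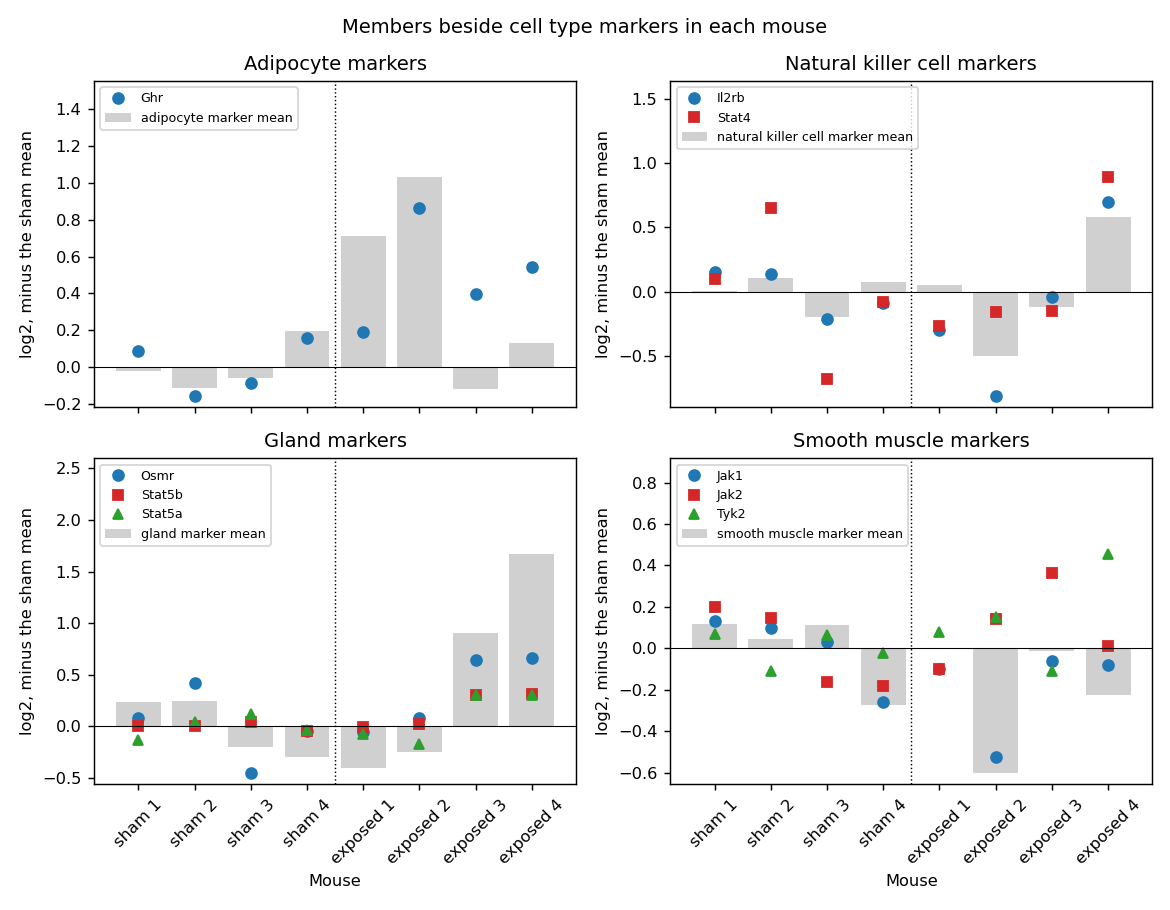
Log2 expression minus the sham mean in each mouse, for members (symbols) and for the mean of a cell type's markers (grey bars), sham mice left of the dotted line. Il2rb and Stat4 reach their highest value in exposed mouse 4, where the natural killer cell marker mean is also highest. Ghr lies above 0 in every exposed mouse, and the adipocyte marker mean is highest in exposed mice 1 and 2.

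Of the 13 inhibitors, 8 had lower and 5 higher means after exposure, with a median difference of -0.08, and 0 reached an unadjusted p under 0.05. In the SOCS family with Cish, 6 of 7 genes had lower means, with a median of -0.17, where 11003 of all 22206 probe sets had lower means. The family was not tested as a group. Socs1, which blocks JAKs in interferon signalling, was 6.77, 7.12, 6.47 and 6.49 in sham mice 1 to 4, and 6.65, 6.50, 6.49 and 6.13 in the exposed mice. All exposed values lay below the sham mean and 3 of them inside the sham range, and the difference was -0.27 ± 0.16 (SE; unadjusted p = 0.125 in limma). Without sham mouse 2 it was -0.135 and without exposed mouse 4 it was -0.167, while without sham mouse 3 it was -0.35.

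Socs2, the feedback inhibitor of growth hormone signalling, was 8.93 ± 0.18 in sham and 8.76 ± 0.34 in exposed uteri. The difference was -0.17 ± 0.16 (SE; unadjusted p = 0.3165 in limma). Its mean was lower where that of Ghr was higher, and this contrast was not tested. Socs2 was 8.84, 8.48, 9.21 and 8.52 in exposed mice 1 to 4, with exposed mouse 3 above every sham mouse and exposed mice 2 and 4 below them all. Without exposed mouse 3, its difference reached an unadjusted p under 0.05 in limma, as did that of Pias4. In that setting 7.2% of all probe sets did. Cish, the STAT5-induced gene whose promoter is printed above, was 6.29, 5.93, 6.17 and 6.10 in sham mice 1 to 4, and 6.14, 6.14, 6.07 and 5.31 in the exposed mice. Exposed mouse 4 alone was low, and the other 3 exposed mice lay inside the sham range. Stat5a and Stat5b were higher in that mouse than in any sham mouse.

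Socs6 had the largest spread of the inhibitors. It was 5.66, 6.19, 4.94 and 5.69 in sham mice 1 to 4, and 5.47, 6.35, 5.60 and 5.32 in the exposed mice. Sham mouse 3 was lowest and exposed mouse 2 highest, and the difference was 0.06 ± 0.28 (SE). Socs7 was 7.42 ± 0.28 in sham and 7.19 ± 0.39 in exposed uteri. Socs4 was 7.94 ± 0.17 and 7.86 ± 0.16, sham first. Socs5 was 7.48 ± 0.21 and 7.42 ± 0.05, so that the spread was larger in sham mice.

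The PIAS proteins bind STATs and attach SUMO to proteins. Pias4 was 7.34, 7.19, 7.49 and 7.70 in sham mice 1 to 4, and 7.33, 6.81, 7.43 and 7.04 in the exposed mice. Exposed mice 2 and 4 lay below every sham mouse, and the other 2 lay inside the sham range. The difference was -0.28 ± 0.16 (SE; unadjusted p = 0.105 in limma), the smallest p of the inhibitors. It ranged from -0.37 without exposed mouse 3 to -0.16 without exposed mouse 2. The other family members had small differences, 0.09 ± 0.09 for Pias1, 0.10 ± 0.10 for Pias2 and 0.02 ± 0.09 (SE) for Pias3.

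Of the phosphatases with SH2 domains, Ptpn11, which encodes SHP2, was 8.42, 8.67, 8.67 and 8.77 in sham mice 1 to 4, and 8.59, 8.44, 8.39 and 8.49 in the exposed mice. Only sham mouse 1 lay within the exposed range. The difference was -0.15 ± 0.10 (SE). Without sham mouse 1 it was -0.22, at an unadjusted p of 0.0421 in limma. In that setting 4.04% of all probe sets reached an unadjusted p under 0.05. The difference was -0.11 without sham mouse 4. Ptpn6, which encodes SHP1 of blood cells, was 6.59 ± 0.05 in sham and 6.60 ± 0.19 in exposed uteri, the smallest difference among the members (0.01 ± 0.11, SE).

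**Figure D4:**
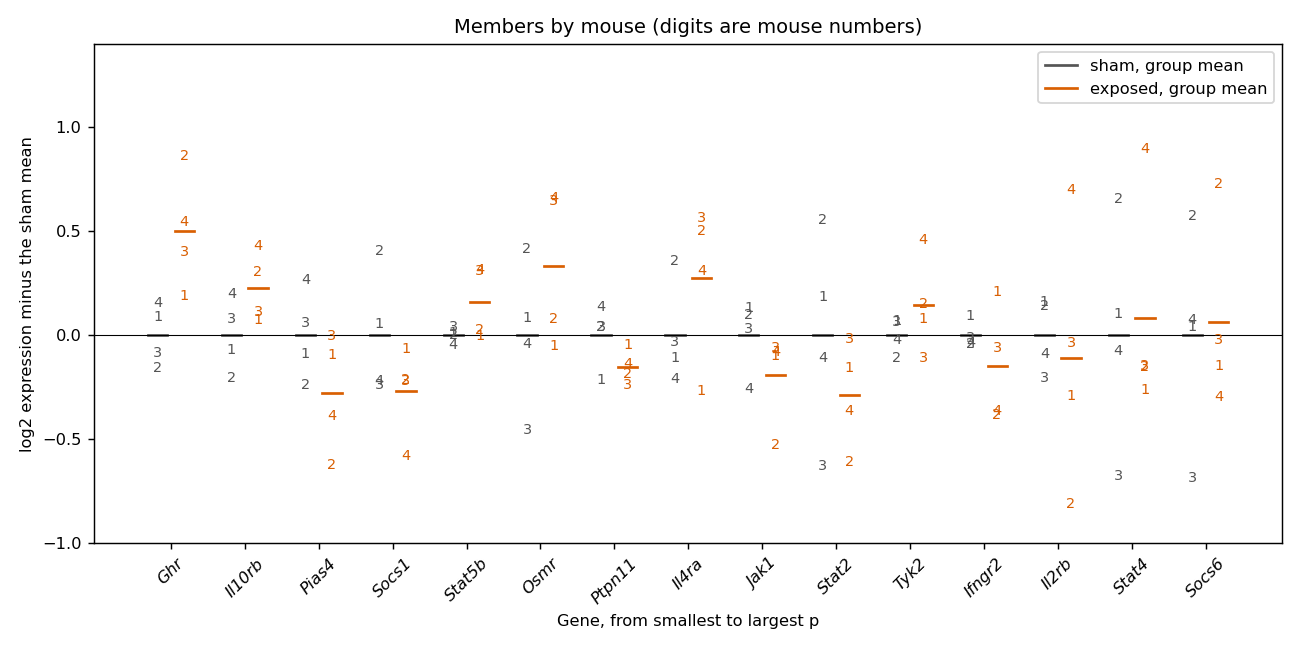
Log2 expression minus the sham mean for the 15 genes given by mouse, ordered by p, with digits for mouse numbers, sham in grey and exposed in orange, and short lines for group means. The groups separate for Ghr alone. Exposed mouse 4 is highest for Il10rb, Stat5b, Osmr, Tyk2, Il2rb and Stat4 and lowest for Socs1.

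The members also differed in which mice held their extreme values. Exposed mouse 4 was highest of the 8 mice for 12 of the 36 genes, where it was highest for 21.6% of all probe sets. Sham mouse 3 was lowest for 12 genes, where it was lowest for 11.3% of all probe sets, Stat2, Stat4, Socs6, Osmr and Csf2rb among them. The SD was larger in exposed than in sham mice for 22 of the 36 genes (61.1%), against 65.8% of all probe sets.

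The rest of the pathway was followed with 78 measured genes of 87 on lists of ligands, receptors, STATs and targets. These lists were chosen with earlier results of these data known, and 0 of the 78 genes passed adjustment over all probe sets. At an unadjusted p under 0.05 in limma, 0 were lower, where 2.5% of all probe sets were. In the same fit 6 were higher, 7.69% of 78, where 2.91% of all probe sets were higher and 5.42% reached that value in either direction. Among 24 other receptors these were Il23r (0.58 ± 0.17, SE), of interleukin 23, Lifr (0.68 ± 0.27), of leukaemia inhibitory factor, and Lepr, of leptin (0.77 ± 0.34). Among 31 other ligands they were Tslp (0.43 ± 0.10), an epithelial cytokine, and Epo (0.28 ± 0.11), which encodes erythropoietin and was dim. Among 21 targets and adaptors it was Bcl6, a repressor gene that STATs regulate (0.46 ± 0.18). By mean, 17 of the 21 were lower, where 11003 of all 22206 probe sets were, and this was not tested. Of the 6 genes higher at that p, Tslp alone had groups without overlap. Among all 78 genes it was 1 in the higher and 0 in the lower direction, where 1.38% and 1.35% of all probe sets had separate groups. Tslp was dim too, below the lower quartile of the array in every sham mouse (5.00 to 5.25) and in exposed mouse 3 (5.33). The sham mean of Il23r, 5.34, was also below that quartile.

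Besides Lifr, the genes Stat3, Socs3 and Lif of leukaemia inhibitory factor signalling did not reach an unadjusted p under 0.05. Stat3 was 9.37 ± 0.45 in sham and 9.19 ± 0.34 in exposed uteri, Socs3, its feedback inhibitor, was 6.97 ± 0.14 and 6.78 ± 0.24, and Lif was 7.34 ± 0.22 and 7.23 ± 0.23.

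The labelled tissue was checked by its markers, read only against the quartiles of the array because probes differ in brightness. All 9 smooth muscle markers had means above the upper quartile of 8.35, the lowest at 9.14, and the 9 luminal epithelium markers ran from 6.93 to 10.9. Levels on such a scale do not show whether tissue of adjoining organs was present, and only group differences are given for those. The marker mean differed by -0.08 for 8 ovary markers, 0.08 for 6 oviduct and ciliated cell markers and -0.15 for 6 mesothelium markers. Of the mesothelium markers, Krt19, also on the luminal epithelium list, differed most, by -0.63, and the others by -0.18 (Calb2) to 0.07 (Msln). Of the 8 ovary markers, 4 had higher means after exposure. Akr1c18, which encodes an enzyme that inactivates progesterone, differed most, by -0.69 ± 0.22 (SE; unadjusted p = 0.0113 and adjusted p = 0.838 in limma). The other ovary markers differed by -0.16 (Zp3) to 0.16 (Fshr). Akr1c18 was dim in the exposed mice, at 4.69 to 4.82, below the lower quartile of the array. Sham mice 3 and 4, at 5.22 and 4.81, were below that quartile too, and the groups overlapped. Sham mice 1 and 2 were at 6.08 and 5.54. The tissue the Akr1c18 signal came from was not tested.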

How the data were processed

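RNA of 8 uteri was labelled with biotin and hybridised to arrays, 1 mouse each, per the labels' protocols. The authors deposited 1 table of log2 values for 22206 probe sets, a scale taken from their range (2.75 to 13.6). Per the submitters' processing notes Partek was used, with settings not given in the sources used here. After sorting, the arrays differ by at most 0.0198, so they share a distribution and were used as deposited, which sets any change common to all genes to 0. No batch is given, and signal over background was not used here. The number of arrays limits the precision.

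The platform annotation gave 1 symbol to 19572 probe sets and none to 2634, and the probe set of highest mean represents a gene. Exposed minus sham was estimated by lmFit and eBayes of limma 3.58.1 (R 4.3.3) over all probe sets with no covariate, with two-sided p-values and Benjamini-Hochberg adjustment. Mice were treated as unpaired. Values by mouse are given for the 12 members of smallest p and, per class, the 2 of smallest p and the 1 of largest SD; Jak2, Stat5a, Cish and the exposed values of Socs2 were added after their values were seen. From each other list up to 4 genes of smallest p could be named. The members and lists were chosen with earlier results of these data known. Alternatives were median centring, quantile normalization, keeping probe sets above the 25th or the 50th percentile of mean level, trend and robust eBayes, array weights, all probe sets of a gene averaged, the replicate block, and leaving out mice. The exposed against sham fit over 22206 probe sets was also run on simulated arrays with 200 changed probe sets. At an adjusted p under 0.05 with the right sign, it found 51.5% of the 1.5-fold, 84.8% of the 2-fold and 97.0% of the 4-fold changes. The simulated noise was independent, with 1 pooled SD for both groups, while 65.8% of real probe sets had the larger SD in exposed mice. These shares may therefore overstate what the fit could find in the data. A planned comparison of protein sequences was not run.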

Additional observations from a re-analysis of the deposited data

Results flagged for a closer look

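Dixon's test, which chance alone passes in about 1 of 20 groups, was run on 102 groups of 4 mice and set 1 mouse apart in 5. Of these, 3 concern members, among 72 member groups. Jak1 was 8.32 in exposed mouse 2, with the other exposed mice at 8.75 to 8.78. Stat4 was 4.97 in exposed mouse 4, with the others at 3.81 to 3.93. Cish was 5.31 in exposed mouse 4, with the others at 6.07 to 6.14. Among other pathway genes, Il21, which encodes an interleukin of T cells, was 4.16 in exposed mouse 2, with the others at 3.93 to 3.97. Tslp was 5.33 in exposed mouse 3, with the others at 5.59 to 5.62. All 5 lie in the exposed group, but at a rate of 1 in 20 chance alone would flag about as many of the 102 groups.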

How the results depend on the processing

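Of the 15 members given by mouse, 12 were tested under all 17 alternatives, while Stat4 fell below both filters and Socs1 and Socs6 below the filter at the 50th percentile. Where tested, 0 passed an adjusted p of 0.05 in limma, and 9 of the 12 kept the sign of their difference throughout. Ghr was at an unadjusted p under 0.05 in every one, with a difference of 0.38 to 0.60 when 1 mouse was left out. The arrays already shared a distribution, and each member had 1 probe set. Median centring, quantile normalization and the averaging of probe sets therefore left the member differences as they were and add no support. Deviations of same-numbered mice from their group means correlated at 0.08, -0.24, 0.08 and 0.08, so the numbers were not taken as pairs. The replicate block left 1 member and 1274 probe sets at an unadjusted p under 0.05 and changed no call. With 1 mouse left out, members at an unadjusted p under 0.05 numbered 1 to 3, probe sets 726 to 2545 (2545 without exposed mouse 1, 726 without sham mouse 2), and probe sets past adjustment 0 to 1 (1 without exposed mouse 1). The member median ran from -0.0506 to 0.0317, the class medians from -0.0834 to 0.161 for STATs, -0.157 to -0.0427 for inhibitors, 0.02 to 0.17 for kinases and 0.0026 to 0.11 for receptors. Other pathway genes at that p numbered 1 to 2 ligands, 1 to 3 receptors, 0 to 1 STAT and SOCS genes and 0 to 2 targets. Differences that changed sign ran from -0.38 to 0.12 for Il2rb, -0.19 to 0.30 for Stat4 and -0.16 to 0.26 for Socs6. The filter at the 50th percentile left 796 probe sets, 0 ligands and 1 receptor at an unadjusted p under 0.05, with fewer genes tested, and the filter at the 25th percentile left 0 ligands. With array weights Stat4 was -0.062. Without exposed mice 2 and 4, a setting chosen after seeing the data, the inhibitor median was -0.0072, 0 receptors and 0 targets reached that p, and differences were -0.017 for Tyk2, 0.074 for Ifngr2, -0.21 for Stat4 and -0.0851 for Socs6. The causes were not tested.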
